A study of Mus musculus with 2 samples.

Results

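The genes described here encode voltage-gated sodium and calcium channels with their auxiliary subunits, HCN channels, the sodium leak channel NALCN and TRP channels. Members were chosen by symbol alone. The rule uses no measured value, but it was set with earlier results of these data known. It takes probe sets whose annotation names only 1 gene. Their symbol is of the form Scn, Cacna1, Cacna2d, Cacnb, Hcn, Trpa, Trpc, Trpm, Trpv (each with its number or letter) or Nalcn. The Cacng genes were left out. This gave 53 genes on 56 probe sets, out of 22180 named genes on 23521 probe sets.

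The RNA came from D2Cre::RiboTag mice. In this design Cre recombinase is driven from Drd2, the dopamine D2 receptor gene, and cells with Cre activity build a haemagglutinin-tagged ribosomal protein into their ribosomes, which an antibody can then pull down with the messengers on them. The tissue was medial prefrontal cortex of adult animals, and the labels call the captured cells Drd2+ neurons. There is 1 group with 2 arrays, which the labels give as technical replicates from pooled tissue of 5 mice. They are taken to come from 1 pool, which is not stated outright, so the spread between arrays is technical and no animal-to-animal variation was measured. No untreated, unprecipitated or mock sample was analysed, and in this RNA of many cells, fewer cells of a type and less RNA per cell cannot be told apart.

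These genes are among those that shape a neuron's excitability. Voltage-gated sodium channels carry the rising phase of the action potential, each pore being a single alpha subunit that associates with small beta subunits. Calcium channels are built on an alpha1 pore with alpha2delta and beta subunits that bring it to the membrane and tune its gating, and they trigger transmitter release, dendritic calcium spikes and gene regulation. HCN channels open on hyperpolarization, NALCN carries a standing sodium leak, and TRP channels are cation channels that respond to lipids, receptors, heat, chemicals or calcium.

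All values are log2 signals. A gene's probe sets were averaged. Probe sets differ in how strongly they bind their target, so a gene was set against thresholds on the same array and not ranked against single other genes. The thresholds come from the probe sets of other genes, so such differences can still affect a call or a median. Receptor genes of the olfactory and vomeronasal epithelia, 1394 in number, served as background: their 95th percentile was 5.61 on replicate 1 and 5.66 on replicate 2. A gene was called above background when it exceeded the threshold on both arrays. By this rule 41 of the 53 channel genes (77.4%) were above background, beside 60.3% of all named genes and 64.1% when the sensory receptors are left out. The median over the 53 genes was 8.16, and over all named genes it was 6.36 (6.57 without the sensory receptors). The families differed in their shares. The beta subunits of sodium channels (3 of 3), the HCN and NALCN genes (4 of 4), the calcium channel alpha1 subunits (9 of 10) and the calcium channel auxiliary subunits (6 of 7) lay above the share of all genes, whereas the sodium channel alpha subunits (5 of 8) and the TRP channels (14 of 21, or 66.7%) were near it. No test was run on these shares, since probe sets are not replicates.

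The arrays carried signal of the targeted gene and of neuronal markers. Markers of other cells were above background too, but fewer of them passed a stricter threshold. Drd2 was at 10.78 on replicate 1 and 10.70 on replicate 2. Pan-neuronal (4 of 4), glutamatergic (4 of 4) and measured GABAergic (3 of 3) markers passed, and the list medians were 12.63, 11.29 and 8.97. So were 6 of 6 astrocyte, 4 of 4 measured oligodendrocyte, 3 of 3 precursor, 5 of 5 microglia and 6 of 6 endothelial and mural markers, at medians of 7.61, 8.66, 7.04, 6.71 and 6.81. Markers of peripheral sensory neurons and of retina passed in 1 of 4 measured cases each, and those of skeletal and heart muscle in 4 of 5. Of all named genes, 60.3% were above background and 38.2% passed the stricter out-of-tissue threshold defined below. All measured neuronal, glutamatergic and GABAergic markers passed that threshold as well. So did 4 of 6 astrocyte, 3 of 4 oligodendrocyte, 1 of 3 precursor, 2 of 5 microglia and 1 of 6 endothelial and mural markers. Of the muscle markers 1 of 5 passed it (Acta1), and of the sensory neuron and retina markers 0 of 4 each. Acta1 and Ckm are also among the genes that set this threshold, so the muscle count is not independent of it. The part of any of these cells in the channel signals was not tested.

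**Figure D1:**
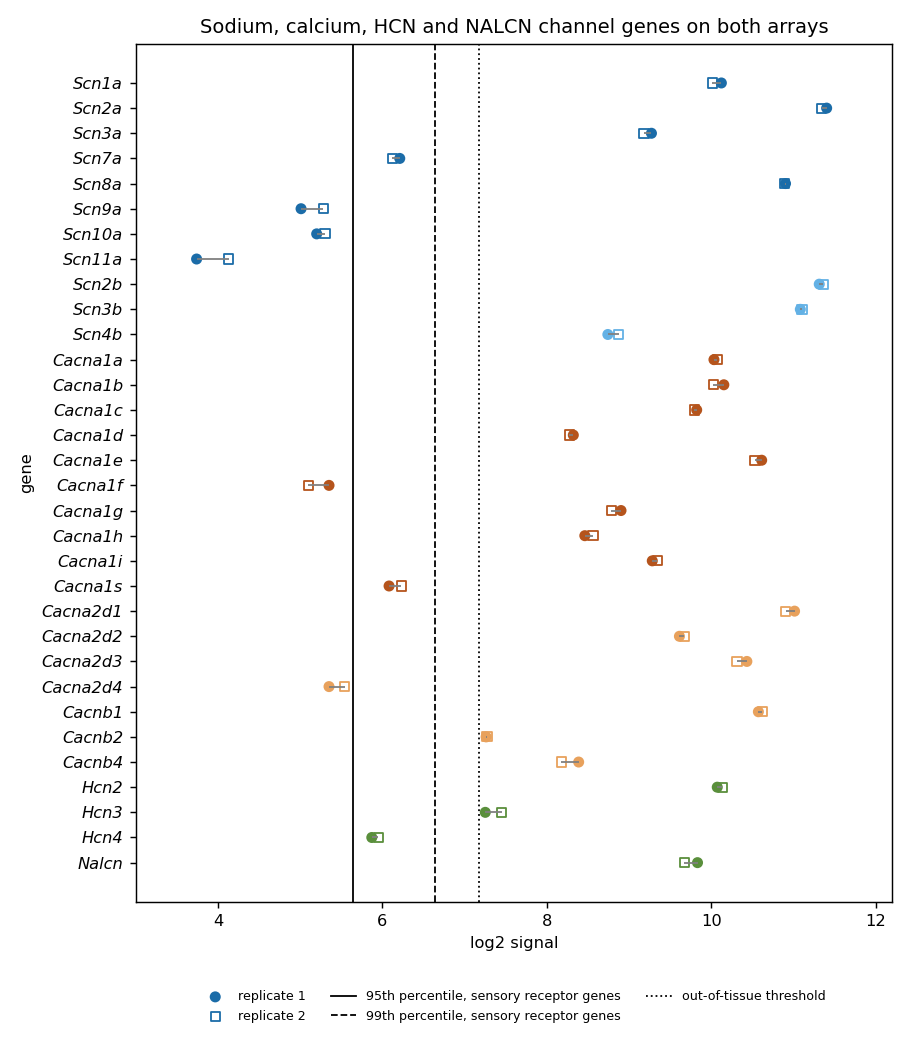
Log2 signal of the 32 sodium, calcium, HCN and NALCN channel genes (rows) on replicate 1 (filled circles) and replicate 2 (open squares), coloured by family. Vertical lines are thresholds, each drawn at the mean of its values on the arrays. Scn9a, Scn10a, Scn11a, Cacna1f and Cacna2d4 lie left of the background line and the other 27 genes lie right of it.

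Of the 8 measured sodium channel alpha subunits, 5 were above background, and 4 of these stayed so at every threshold tried. Scn2a, which encodes a channel of excitatory neurons and their axon initial segment, was at 11.40 on replicate 1 and 11.34 on replicate 2. Scn8a, whose channel sustains firing at the axon initial segment and at nodes of Ranvier, was at 10.90 and 10.89. Scn1a, the sodium channel gene affected in Dravet syndrome and known for its role in fast-spiking interneurons, was at 10.12 and 10.01. All 3 were above every threshold tried on both arrays. Scn3a, known for high expression before birth and in the early brain, was at 9.27 and 9.18, 3.66 and 3.52 units over background.

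The remaining alpha subunits were at or near background. Scn7a encodes an atypical channel that senses sodium rather than voltage and is known from glia and circumventricular organs. It was above background at 6.21 and 6.12, but stayed under the 99th percentile of sensory receptors, at 6.64 on both arrays. Scn9a, the pain-related channel of sensory and sympathetic neurons, was not above background at 5.01 and 5.28 on the probe set that names it alone. A further probe set, which names Scn9a together with Gm13629 and was not used, was at 6.80 and 6.97. Scn10a (5.20 and 5.30) and Scn11a (3.74 and 4.13), both channels of nociceptors, were not above background either. On both arrays Scn11a lay more than 1.5 units under the threshold.

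The beta subunits are single-pass membrane proteins that modulate gating and act as adhesion molecules. All 3 measured genes were far over background. Scn2b was at 11.31 and 11.36, and Scn3b at 11.08 and 11.10. Scn4b, whose product supplies the blocking peptide of resurgent sodium current, was at 8.74 and 8.87, on average 3.17 units over background.

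Among the calcium channel pores, the presynaptic and the low-voltage-activated types were all above background. Cacna1a (P/Q-type, the main channel of fast transmitter release) was at 10.03 and 10.07, Cacna1b (N-type) at 10.15 and 10.02, and Cacna1e (R-type) at 10.61 and 10.53. All 3 were far over background, which Cacna1b exceeded by 4.54 and 4.36 units. The T-type genes carry currents that start near rest and shape bursts. Cacna1g was at 8.90 and 8.78, Cacna1h at 8.46 and 8.56, and Cacna1i at 9.28 and 9.34, so that all 3 T-type genes gave signal in this RNA.

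Of the 4 L-type genes, 3 were above background. Cacna1c, the main L-type channel of brain and heart, was at 9.82 and 9.79, and Cacna1d, which activates at lower voltages, at 8.32 and 8.27. Cacna1f, known from photoreceptor synapses, was not above background at 5.35 and 5.10. Cacna1s, the voltage sensor of skeletal muscle, was above background at 6.08 and 6.23 and under the 99th percentile of sensory receptors on both arrays. Of the 5 muscle markers, Acta1 was at 7.98 and the others lay between 5.27 and 6.12 (means of the arrays).

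Of the 7 measured auxiliary subunit genes, 6 were above background. Of the alpha2delta genes, Cacna2d1 was at 11.01 and 10.90, Cacna2d2 at 9.61 and 9.67, and Cacna2d3 at 10.43 and 10.31. Cacna2d1 and Cacna2d2 encode the binding sites of gabapentin. Cacna2d4, a gene of the retina, stayed under background at 5.35 and 5.54. The beta subunits bind the alpha1 pore from the cytoplasm. Cacnb1 was at 10.57 and 10.62.

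Cacnb2 and Cacnb4 depended on the probe set. Cacnb2 had a mean of 7.26 and 7.27, from a probe set at 9.48 and 9.47 and another at 5.04 and 5.07, which was under background on both arrays. Cacnb4 had a mean of 8.39 and 8.18, from a probe set at 10.20 and 10.15 and another at 6.57 and 6.20. Both Cacnb4 probe sets were above background. A gene's mean therefore mixed signals that lay 4.42 (Cacnb2) and 3.79 (Cacnb4) log2 units apart, far more than the spread between arrays.

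All 3 measured HCN genes were above background. Hcn2, which encodes a channel widespread in brain, was at 10.07 and 10.13. Hcn3 was at 7.25 and 7.45 and Hcn4, the pacemaker channel of the heart that also occurs in thalamus, at 5.87 and 5.95. Hcn4 was on average 0.27 units over background and Hcn3 1.71 units. Nalcn was at 9.83 and 9.67, and the measured genes of its complex gave signal too. Unc79 (9.75 and 9.65) and Unc80 (11.04 and 10.94) encode large proteins required for the leak current, and Fam155a (10.42 and 10.35) a further subunit.

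**Figure D2:**
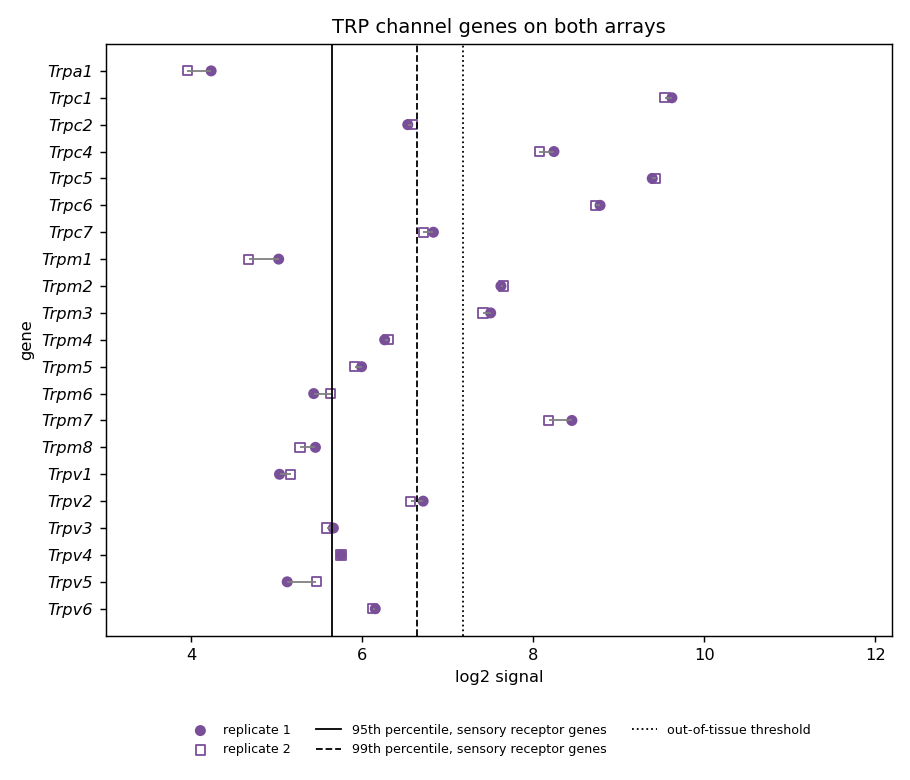
Log2 signal of the 21 TRP channel genes (rows) on replicate 1 (filled circles) and replicate 2 (open squares), with thresholds drawn at the mean of their values on the arrays. Of the 7 genes right of the out-of-tissue line, 4 are Trpc and 3 are Trpm genes, and the 6 Trpv genes lie between 5.10 and 6.64 (means of the arrays).

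The 14 TRP genes above background were 6 Trpc, 5 Trpm and 3 Trpv genes. All 6 measured Trpc genes passed. These channels open downstream of receptors that activate phospholipase C. Trpc1 was at 9.62 and 9.54, Trpc5 at 9.39 and 9.43, Trpc6 at 8.78 and 8.73, and Trpc4 at 8.24 and 8.07. Trpc7 was at 6.83 and 6.71. Trpc2, which in rodents serves pheromone detection in the vomeronasal organ, was at 6.53 and 6.58, under the 99th percentile of sensory receptors on both arrays.

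Of the 8 Trpm genes, 5 were above background. Trpm7, a channel fused to a kinase and involved in magnesium balance, was at 8.45 and 8.18. Trpm2, which opens on ADP-ribose and oxidative stress and is known from microglia as well as neurons, was at 7.62 and 7.65. Trpm3, a heat- and steroid-sensitive channel, was at 7.50 and 7.41. The calcium-activated channels Trpm4 (6.26 and 6.30) and Trpm5 (5.99 and 5.91), the latter known from taste cells, passed background but not the 99th percentile. Trpm1 of the retina (5.02 and 4.67), Trpm6 of gut and kidney (5.43 and 5.63) and the cold receptor Trpm8 (5.45 and 5.27) were not above background.

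By their gene means, most of the vanilloid family lay close to background. Trpv2 was at 6.71 and 6.57 as the mean of probe sets at 7.86 and 7.76 and at 5.56 and 5.37, and so only 1 of its probe sets was above background. Trpv6, an epithelial calcium channel, was at 6.15 and 6.12. Trpv4, an osmosensitive channel, was at 5.75 on both arrays, 0.14 and 0.09 units over background. The capsaicin receptor Trpv1 (5.03 and 5.16) and the kidney channel Trpv5 (5.12 and 5.46) were not above it. Trpv3 of skin, at 5.66 and 5.58, was the only channel gene above the threshold on just 1 array, replicate 1. The irritant receptor Trpa1 was at 4.23 and 3.95.

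Stricter thresholds took calls from 4 of the 6 families, and the sodium beta and calcium auxiliary subunits lost none. At the 99th percentile of sensory receptors, 32 of the 53 channel genes passed, beside 45.0% of all named genes, and 9 calls were lost: Scn7a, Cacna1s, Hcn4, Trpc2, Trpm4, Trpm5, Trpv2, Trpv4 and Trpv6. The out-of-tissue threshold, the 95th percentile of 32 genes known from testis, liver or skeletal muscle, lay at 7.26 and 7.10. There 30 channel genes passed, beside 38.2% of all named genes, and Hcn3 and Trpc7 were lost in addition. Hcn3 missed on replicate 1 only, where it was at 7.25, and Cacnb2, at 7.26 there, passed at the limit. Trpv2 was lost as a mean of probe sets, while its higher probe set, at 7.86 and 7.76, was over both thresholds. At the most permissive alternative, the median of all probe sets, 40 channel genes passed beside 57.5% of all named genes. At the 99th percentile and the out-of-tissue threshold, the TRP channels fell from 14 to 8 and 7 of 21 genes. Their share was then below that of all named genes. The HCN and NALCN genes fell from 4 to 3 and 2. The sodium and calcium channel genes together lost only Scn7a and Cacna1s at either threshold.

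**Figure D3:**
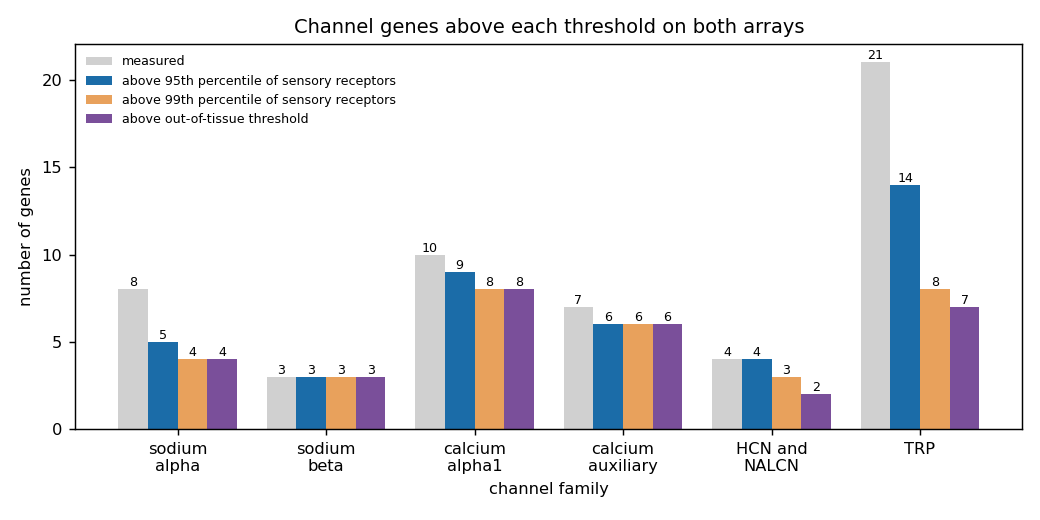
Number of genes in each channel family (horizontal axis) that were measured and that exceeded each threshold on both arrays (bars). The sodium beta and calcium auxiliary bars keep their height across thresholds at 3 and 6 genes, and the TRP bars fall from 14 to 8 and 7.

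A list of members whose textbook site of expression is muscle, heart, retina, peripheral sensory neurons, vomeronasal organ, taste cells, skin, kidney or gut held 17 genes, of which 15 were measured. Above background were 4 of the 15, beside 60.3% of all named genes: Cacna1s, Trpc2, Trpm5 and Trpv6. None of the 15 passed the 99th percentile of sensory receptors, beside 45.0% of all named genes. Their median was 5.36 with a highest mean of 6.56 (Trpc2). Of the other 38 members, 37 were above background, and the exception was Scn9a. This list was written from textbook knowledge with earlier results of these data known. Scn9a and Hcn4, which also have well-known sites outside cortex, were not on it, so the counts depend on that placing and support nothing by themselves.

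Partners of the channels were read from a list that did not overlap the members. Of 42 measured partners, 36 were above background, beside 60.3% of all named genes. The out-of-tissue threshold was passed by 28 of them, beside 38.2% of all named genes. All 8 genes that anchor sodium channels or regulate their inactivation and turnover passed both thresholds. Among them, Ank3, which encodes the ankyrin G of the axon initial segment, was at 11.35 and 11.21, Ank2 at 11.18 and 11.05, and Sptbn4, a spectrin that joins ankyrin G to the cytoskeleton, at 7.75 and 7.57. The fibroblast growth factor homologous factors, which bind the tails of sodium channels, were at 11.35 and 11.31 (Fgf12), 10.42 and 10.35 (Fgf13), 9.57 on both arrays (Fgf14) and 8.26 and 8.28 (Fgf11). The ubiquitin ligase Nedd4l was at 10.97 and 10.87.

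Of the HCN partners, Pex5l, whose product TRIP8b sets the surface level of HCN channels, was at 9.72 and 9.56, and Flna at 6.22 and 6.24. Kcne2 was not above background at 4.75 and 4.64, and only Pex5l passed the out-of-tissue threshold. Of 9 measured calcium channel partners, 8 were above background. The active zone genes Rims1 (10.61 and 10.50) and Rimbp2 (10.19 and 10.26), which tether calcium channels at release sites, were far over it. Stac2 was at 8.61 and 8.72, Stac3, known from skeletal muscle, at 5.88 and 5.74, and Stac was not above background at 5.48 and 5.27. The inhibitory small G proteins Rem2, Rrad and Gem were at 7.12 and 7.21, 6.26 and 6.29, and 6.42 and 5.92, and the calcium-binding regulator Cabp1 at 7.21 and 7.18. Gem differed by 0.50 between the arrays, more than any member.

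Store-operated and TRP-related genes passed in 9 of 11 measured cases. The calcium sensors of the endoplasmic reticulum, Stim1 and Stim2, were at 9.10 and 9.05 and at 11.18 and 11.08. Their channels Orai1, Orai2 and Orai3 were at 6.49 and 6.36, 7.64 and 7.60, and 7.61 and 7.85. The lysosomal channel Mcoln1 was at 9.88 and 9.91, Mcoln3 at 6.30 and 6.18, and Mcoln2 was not above background at 5.44 and 5.42. Pkd1 was at 8.47 and 8.33, Homer1, a scaffold that binds TRPC channels and group I glutamate receptors, at 9.99 and 9.80, and Pkd2l1 was not above background at 4.97 and 4.28.

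The Cacng genes, whose products act as calcium channel gamma subunits or as partners of AMPA receptors, were above background in 6 of 8 cases. The same 6 passed the out-of-tissue threshold. Cacng3 was at 12.47 and 12.41, Cacng7 at 11.54 and 11.58, Cacng8 at 10.98 and 11.03, Cacng4 at 9.14 and 9.19, Cacng2 (stargazin) at 8.69 and 8.77, and Cacng5 at 7.59 and 7.65. The genes not above background were Cacng1 (4.71 and 4.67) and Cacng6 (5.25 and 5.04), the gamma subunits known from muscle.

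The arrays repeated the channel signals closely. Differences between replicates 1 and 2 had an SD of 0.102 over the 41 members above background, beside 0.149 for all 13374 named genes above background. These sets were not matched for signal. Over all named genes the SD was 0.126 at signals of 8 to 9 and 0.0987 at 10 to 11. The largest among the members was 0.27 log2 units, for Trpm7. Of these 41 genes, 23 were higher on replicate 1, 17 on replicate 2 and Trpv4 was equal at the 2 decimals deposited. Over the 12 members not above background the SD was 0.257, beside 0.291 for all named genes not above it, and the differences of Scn11a (0.39), Trpm1 (0.35) and Trpv5 (0.34) were over 0.3. Close to the threshold, 4 members lay less than 0.5 units over it on average (Trpv4, Hcn4, Trpm5 and Trpv6) and 8 less than 0.5 units under it (Scn9a, Cacna1f, Scn10a, Trpv5, Trpm8, Cacna2d4, Trpm6 and Trpv3). Over all named genes, replicates differed with an SD of 0.244 at signals of 5 to 6 and of 0.192 at 6 to 7. Of the 12 calls only that of Trpv3 differed between the arrays.

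**Figure D4:**
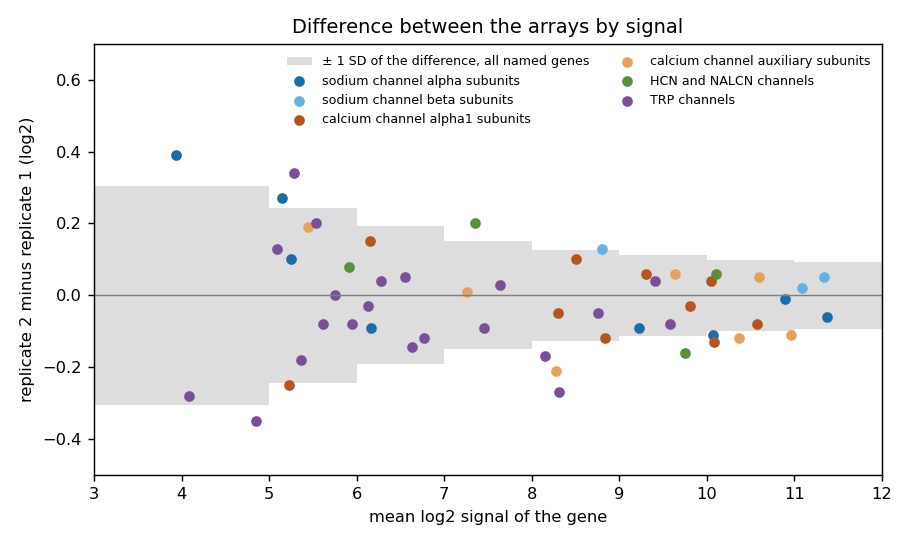
Difference between the arrays (replicate 2 minus replicate 1, log2) against mean log2 signal for the 53 channel genes, coloured by family. The grey band is 1 SD of the difference over all named genes in each signal range, and narrows from 0.305 under a signal of 5 to 0.0927 at 11 or more.

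Neighbouring channel genes did not always share a call. In the RefSeq annotation of GRCm38.p6, 7 pairs of the measured genes follow each other with no other protein-coding gene starting between them. Both genes were above background in Scn3a with Scn2a and in Scn2b with Scn4b. Neither was in Trpv1 with Trpv3 or in Scn10a with Scn11a. The calls differed in Scn1a with Scn9a, in Scn9a with Scn7a, and in Trpv6 with Trpv5. The calls of Scn9a rest on the probe set that names it alone.

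Promoter sequence was compared as a property that the choice of members did not use. CpG dinucleotides (CG, which reads the same on both strands) are sparse in most of the mouse genome and dense in the CpG islands that overlie the promoters of many genes. They were counted in the 250 bases before the annotated start in RefSeq promoter windows of GRCm38.p6, and the first window listed was taken for each gene. A window was found for 44 of the 53 members, 10 of them with several windows. Below, 5 of them are shown with every CG in capitals, 5′ to 3′ on the gene's strand. Cacna2d1 and Scn8a are CpG-rich and above background, Scn1a and Scn2b are CpG-poor and above background, and Scn11a is CpG-poor and not above background. The windows are chr5:15934441-15934690 (plus strand, Cacna2d1), chr15:100870395-100870644 (plus, Scn8a), chr2:66440838-66441087 (minus, Scn1a), chr9:45117626-45117875 (plus, Scn2b) and chr9:119825457-119825706 (minus, Scn11a), all directly upstream of the annotated start.
Cacna2d1: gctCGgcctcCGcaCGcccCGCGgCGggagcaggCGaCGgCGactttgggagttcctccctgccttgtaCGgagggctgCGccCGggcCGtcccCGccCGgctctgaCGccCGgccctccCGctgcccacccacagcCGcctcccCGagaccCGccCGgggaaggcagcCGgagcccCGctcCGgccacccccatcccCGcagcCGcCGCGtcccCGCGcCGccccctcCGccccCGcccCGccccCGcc
Scn8a: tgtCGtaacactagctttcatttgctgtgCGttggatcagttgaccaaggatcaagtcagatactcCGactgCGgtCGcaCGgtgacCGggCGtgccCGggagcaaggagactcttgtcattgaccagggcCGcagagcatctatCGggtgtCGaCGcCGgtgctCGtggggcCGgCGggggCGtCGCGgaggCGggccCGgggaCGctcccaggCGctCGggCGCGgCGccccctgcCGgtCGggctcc
Scn1a: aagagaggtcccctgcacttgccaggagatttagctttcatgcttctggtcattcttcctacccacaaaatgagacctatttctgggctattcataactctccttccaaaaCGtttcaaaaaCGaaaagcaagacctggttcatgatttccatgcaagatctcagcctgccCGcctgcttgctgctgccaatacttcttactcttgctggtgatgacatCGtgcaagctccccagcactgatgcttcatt
Scn2b: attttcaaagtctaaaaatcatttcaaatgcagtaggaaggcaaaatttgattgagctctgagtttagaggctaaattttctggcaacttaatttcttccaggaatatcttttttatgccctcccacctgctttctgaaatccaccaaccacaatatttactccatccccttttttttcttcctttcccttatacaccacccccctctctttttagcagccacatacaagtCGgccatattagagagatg
Scn11a: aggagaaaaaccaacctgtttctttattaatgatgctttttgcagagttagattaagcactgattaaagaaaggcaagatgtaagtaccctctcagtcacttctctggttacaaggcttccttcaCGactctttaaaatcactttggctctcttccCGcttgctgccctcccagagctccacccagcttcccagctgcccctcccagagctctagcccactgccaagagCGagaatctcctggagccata

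The CpG counts of these windows were 36 (Cacna2d1), 30 (Scn8a), 4 (Scn1a), 1 (Scn2b) and 3 (Scn11a). Among the 10 members not above background with a window, the count ran from 1 to 8 with a median of 3. Among the 34 above background it ran from 1 to 37 with a median of 12, and 20 of them (58.8%) had more than 8. For comparison, more than 8 were found in 75.1% of the 10447 other-than-sensory named genes above background (median 16) and in 23.2% of the 5360 not above it (median 3). The limit of 8 was taken from the members after their values were seen.

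CpG counts were described by family for the genes above background. All 6 calcium channel auxiliary genes above background were CpG-rich, at 26 for Cacnb1, 30 for Cacnb2 and Cacna2d3, 34 for Cacna2d2, 36 for Cacna2d1 and 37 for Cacnb4. Of the 4 sodium channel alpha genes above background with a window, Scn8a had 30, whereas Scn1a, Scn2a and Scn7a had 4, 2 and 3, with 9 in another window of Scn2a. Nalcn had 2, Cacna1e 6 and Trpc5 7, and all 3 were above the out-of-tissue threshold on both arrays. In the other direction, Hcn4 with 25 and Trpv4 with 22 were CpG-rich and less than 0.3 units over background. Cacna1c and Cacna1d had 2 each in the first window listed, but 48 and 50 in another of their windows, so their type depended on the start site. With each gene's richest window, the median of the calcium channel alpha1 genes above background moved from 7.5 to 22.5 and that of the sodium channel alpha genes from 3.5 to 6.5, while that of the calcium channel auxiliary genes was 32 in both cases. A CpG count describes these letters only, and its relation to the signals was not tested.

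**Figure D5:**
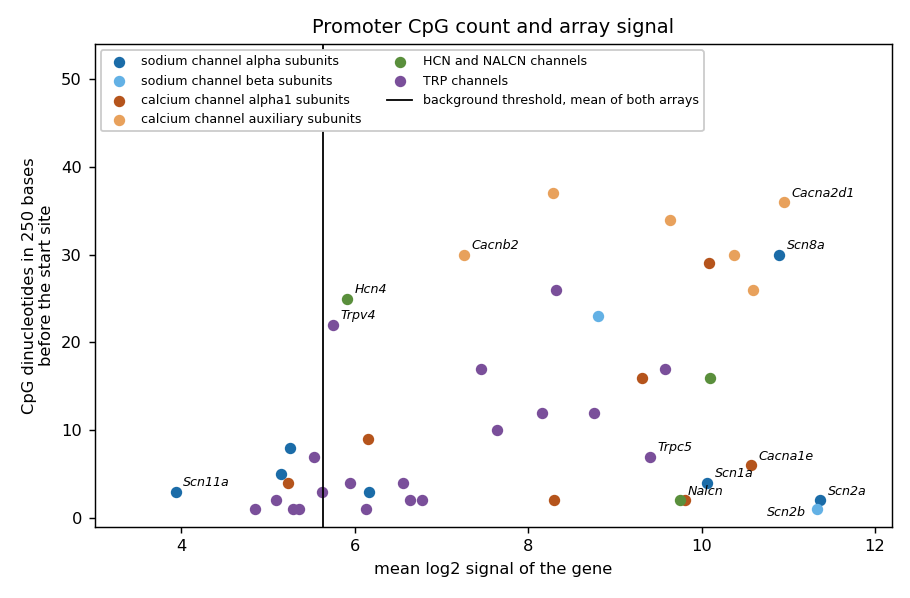
CpG dinucleotides in the 250 bases before the start site (first listed RefSeq window) against mean log2 signal for the 44 channel genes with a window, coloured by family. Left of the background line no gene exceeds 8, and right of it genes with 1 to 37 occur, with Scn2a, Scn2b and Scn1a at the lower right and Cacna2d1 and Scn8a at the upper right.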

How the data were processed

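Ribosome-bound RNA was labelled with biotin by a whole-transcript kit, per the labels' protocols. The deposited values are 1 log2 signal per probe set and array; base 2 was inferred from their range (1.66 to 14.18), while for background correction, summarisation, normalization and genome build the sources used here give nothing. Of 34472 probe sets, 23521 name 1 gene in the platform annotation, 1814 name several and were not used, and 9137 are unnamed here. All 53 member symbols matched the RefSeq table of GRCm38.p6 by gene identifier. No column of sample values was left unused. Probe sets of a gene were averaged, and thresholds are percentiles within each array. With 1 group of 2 technical replicates no test was possible and no p-value is given; the number of arrays limits the precision. Members, gene lists and thresholds were chosen with earlier results of these data known, and the promoter comparison was added after the values were seen. Every member may be named, and other genes come from the lists fixed with the design. Alternatives were other thresholds (99th percentile, out-of-tissue genes, median probe set), a gene's highest or lowest probe set, restriction to genes with 1 probe set, each array alone and quantile normalization. The procedure was run on simulated data (Python 3.11.15, numpy 2.4.6, pandas 2.3.3). There, genes were set about 1 log2 unit over or under the threshold, so calls closer to it were not tested.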

Additional observations from a re-analysis of the deposited data

Results flagged for a closer look

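A probe set outside the comparisons, which names both Scn9a and Gm13629, gave a mean log2 signal of 6.88 (6.80 on replicate 1 and 6.97 on replicate 2), above background on both arrays. The probe set that names Scn9a alone was at 5.01 and 5.28. The signal could not be assigned to either gene, and its source was not tested.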

How the results depend on the processing

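Counts of members above background moved by no more than 1.5 times in each alternative, with exceptions in 2 families. TRP channels fell from 14 to 8 at the 99th percentile and to 7 with out-of-tissue genes as threshold. The HCN and NALCN channels fell from 4 to 2 with the latter. The count over all members was 41 or 42 with each array alone. The median signal of the members was 8.16, against 8.30 with the highest and 7.64 with the lowest probe set of each gene. With the lowest probe set, Cacnb2 and Trpv2 were no longer above background; with the median of all probe sets as threshold (57.5% of all named genes passed), Trpv4 was not; and on replicate 1 alone Trpv3 was. No call changed with the highest probe set, with genes of 1 probe set, with quantile normalization or on replicate 2 alone. The window with most CpG, an alternative chosen after seeing the data, moved the median CpG count from 12 to 16 for members above background and from 3 to 3.5 for the others. Each of these shifts came with the exchange of a threshold, probe set or window, or with the use of 1 array alone. No paired analysis was possible because there is only 1 group. For 12 members the signal lay within 0.5 log2 units of the background threshold, and no depth is defined for arrays.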
